A study of Mus musculus with 2 samples.

Results

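The 55 genes described here act in ribosome biogenesis and in the nucleolus. They were chosen by name, and all 55 were among the 23154 genes of the 2 count tables. Counts came from 87 PK44 cells of the mouse embryo's yolk sac at E10.0, which were sorted as CD41-CD43-CD45-CD31+CD201+Kit+CD44+ and are studied as hemogenic endothelial cells, the endothelial cells that give rise to blood. The mice were kept on a C57BL/6 background, a genotype or treatment is not given in the sources used here, and both libraries belonged to this 1 condition, so no group of animals was compared with another. Replicate 1 held 43 cells and replicate 2 held 44 cells, read by a modified STRT-seq method that counts transcripts by molecular identifiers near their 3′ ends.

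Ribosomes begin in the nucleolus, where RNA polymerase I transcribes the ribosomal RNA precursor. Small nucleolar ribonucleoproteins (snoRNPs) of the box C/D and box H/ACA kinds modify that precursor, and large assemblies of processing factors fold it, cleave it and load it with ribosomal proteins until the small and the large subunit leave the nucleus. Many genes of this pathway are known targets of Myc, and their activity is high in growing cells.

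Replicate 1 summed to 8932527 counts, and its cells held 13218 to 702028 around a median of 141577. Replicate 2 summed to 12706360 counts, and its cells held 51620 to 956593 around a median of 238898. The libraries shared 0 cell barcodes. Pecam1 (CD31) had a count in 86 and Cdh5 in 87 of the 87 cells, whereas Ptprc (CD45) had a count in 3 and Spn (CD43) in 9. Itga2b (CD41), which was sorted against, had a count in 56 cells. Of the erythroid markers 3 of 8 had any count, of the macrophage markers 4 of 7 and of the visceral endoderm markers 3 of 6. Adgre1, C1qa and Alb were at 0 in both libraries, but macrophage markers as a list were not absent, and their summed level is given below. Mesenchymal markers were high in 3 cells, 2 of replicate 1 and 1 of replicate 2, and results were computed with and without them. Nothing states that the libraries came from separate embryos. Every p-value below thus rests on a spread between these libraries that is shared or moderated across genes, and that spread may be technical.

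Together the 55 genes gave 1.28% of all counts of replicate 1 and 0.855% of those of replicate 2. Their summed level was 12779 CPM (a gene's counts scaled to a common total of a library's summed counts) in replicate 1 and 8549 CPM in replicate 2. Single cells were far apart within a library. The share of a cell's counts from the 55 genes was 0.293% at the lowest, 1.22% at the median and 2.70% at the highest in replicate 1, and 0.220%, 0.640% and 2.02% in replicate 2. Highest and lowest cell thus differed 9.21-fold in replicate 1 and 9.16-fold in replicate 2, and with every cell thinned to 20000 counts the ratios were 8.52 and 7.30.

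The members were higher in replicate 1 in 46 of 55 cases and higher in replicate 2 in 9. Their median ratio of replicate 1 to replicate 2 was 1.39, from 0.281 for Noc4l to 3.85 for Tsr1. Over the 8357 genes that were at least as high as the lowest member the median ratio was 0.993, and 49.5% were higher in replicate 1, against 83.6% of the members. With 1 condition and 2 libraries this difference has no test, and the order of the members was kept between libraries at a Spearman rho of 0.893 over the 55 genes. Levels are CPM from 3′ ends, which need no correction for length, but the efficiency of capture can differ between genes.

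Npm1 and Ncl, both scaffold proteins of the nucleolus, stood highest. Npm1 (nucleophosmin) reached 2478 CPM in replicate 1 and 1396 CPM in replicate 2. Ncl (nucleolin) reached 2306 and 1369 CPM. Both had a count in each of the 87 cells and were the only members over 1000 CPM in both libraries, and they held 37.4% of the member counts in replicate 1 and 32.4% in replicate 2. Per cell, Npm1 ranged from 72.8 to 7431 CPM around a median of 2295 CPM in replicate 1. Nolc1, a chaperone of snoRNPs, had 483 and 276 CPM. The other members of this group, the helicase Ddx21 and the GTPase Gnl3 (nucleostemin), lay lower at 289 and 162 CPM and at 267 and 224 CPM.

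Core proteins of the snoRNPs reached levels like those of Nolc1, Ddx21 and Gnl3. In the box C/D particle, which guides methylation, the core proteins Nop58 and Nop56 had 592 and 395 CPM and 451 and 279 CPM, and the methyltransferase Fbl (fibrillarin) had 432 and 205 CPM. Rrp9, found in the U3 particle only, was far lower at 56.3 and 58.7 CPM and had a count in 52 cells, against 81 or 82 cells for the other three. In the box H/ACA particle, which guides pseudouridylation, Nhp2 had 487 and 475 CPM and Nop10 had 335 and 408 CPM. The pseudouridine synthase Dkc1 (dyskerin) had 303 and 160 CPM, and Gar1 had 130 and 61.0 CPM. Nop10 was the only protein of this particle that was higher in replicate 2, and Nhp2 differed little between the libraries.

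Subunits of RNA polymerase I were lower than the scaffold proteins. The catalytic subunit Polr1a had 78.9 and 48.5 CPM, and Polr1c, which RNA polymerase III shares, had 140 and 84.3 CPM. Polr1b had 19.5 and 51.4 CPM and Polr1e had 8.84 and 17.3 CPM, so both were lower in replicate 1, against the direction of most members. In replicate 1 Polr1e had counts in 4 cells only, 3 of which held 97.5% of them. Rrn3, the initiation factor that brings the polymerase to the promoter, had 80.9 and 63.9 CPM.

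Processing factors made up the remaining 37 members. The 20 factors of the small subunit had medians of 84.2 CPM (replicate 1) and 55.4 CPM (replicate 2), and the 17 factors of the large subunit had medians of 86.8 and 72.3 CPM. Wdr43, a subunit of the small subunit processome, was the highest of them at 389 and 263 CPM, followed by Ddx18, a helicase of large subunit assembly, at 298 and 260 CPM. The partners of the PeBoW complex, which acts on the large subunit, had similar levels apart from 1 value. Pes1 had 60.9 and 77.8 CPM, Bop1 had 68.0 and 58.6 CPM, and Wdr12 had 181 and 72.3 CPM. Lowest of all members by mean were Tsr1, a factor of late small subunit maturation, at 18.5 and 4.80 CPM, Polr1e, and Noc3l, a factor of large subunit maturation, at 32.9 and 13.1 CPM. Over all 55 genes, 16 lay over 100 CPM in both libraries and 28 lay under 100 CPM in both.

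**Figure D1:**
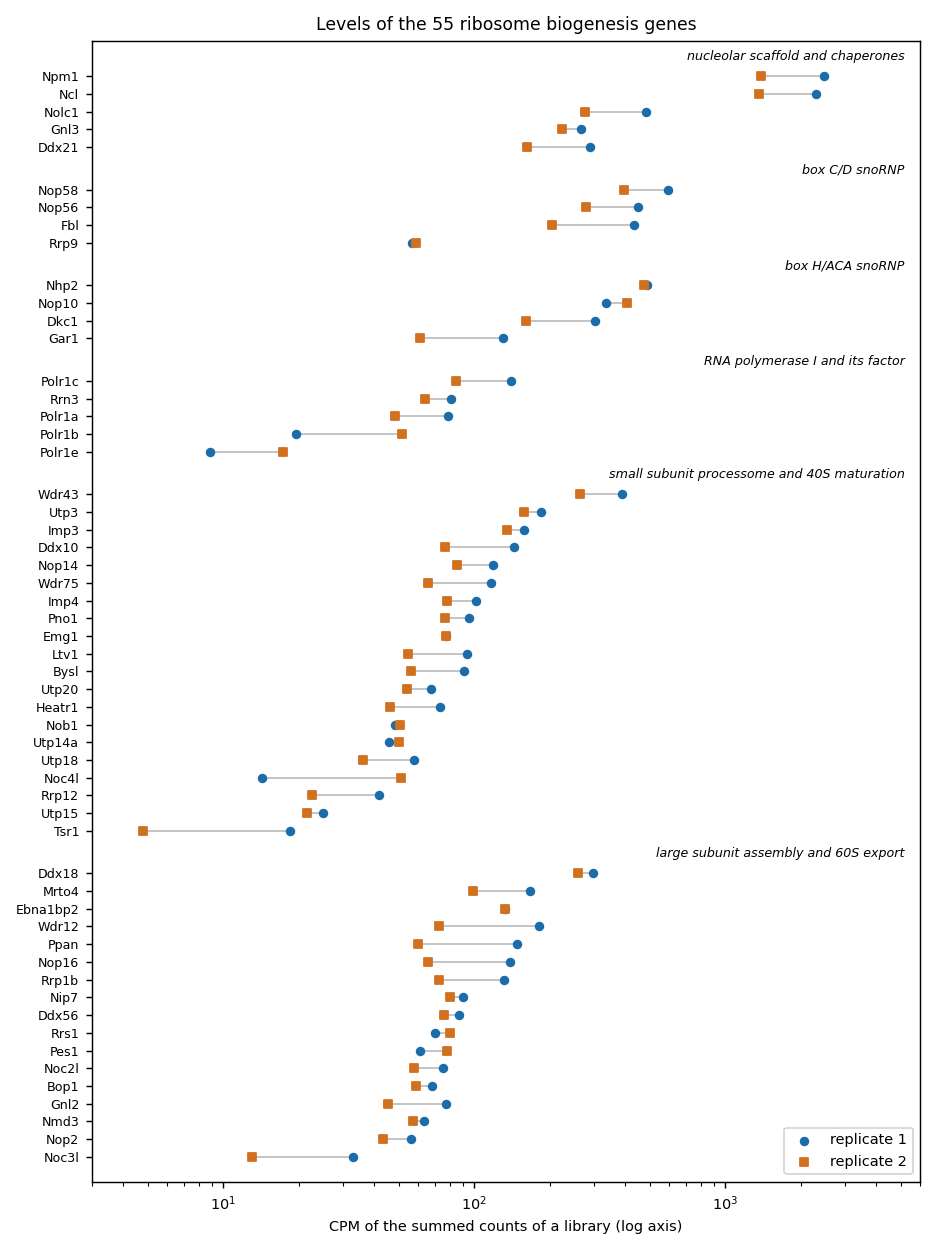
Level of each of the 55 genes in CPM of a library's summed counts (log axis), with a blue circle for replicate 1 and an orange square for replicate 2, grouped by role. Npm1 and Ncl lie over 1000 CPM in both libraries, the snoRNP proteins other than Rrp9 mostly between 100 and 600 CPM, and 46 of 55 circles lie to the right of their squares.

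Detection followed level. The median member had a count in 61 of the 87 cells, 7 members had a count in at least 80 cells and 8 in fewer than 44. Such shares depend on depth, since a low transcript is missed in a shallow cell. Where a member was found in few cells, few cells also carried its level: the 3 highest cells held 77.7% of the Nop14 counts and 93.3% of the Utp15 counts of replicate 1, against 23.1% for Npm1.

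The members lay on 18 chromosomes of GRCm38 (mm10), and all 55 matched a gene of GENCODE M21. Npm1 lies at chr11:33152287-33163206 on the minus strand, Ncl at chr1:86344719-86359400 on the minus strand, and Nhp2 at chr11:51619735-51623714 on the plus strand. Within the bounds of 8 members lie 23 small nucleolar RNA genes, 5 of them in Nop56 and 4 in Nop58. An exon overlapped an exon of another annotated gene in 24 members, on the other strand in 21 and on the same strand in 5. Reads of such stretches cannot be assigned with certainty, as the use of strand in the counting is not given. Mrto4 has 2 annotated pseudogenes named for it, so its counts are uncertain too.

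Promoter sequence was compared because many of these genes moved together across cells, as described below. Whether the sequence bears on that was not tested, and some members with a motif were too low to be correlated. RefSeq promoter windows of GRCm38.p6, from 250 bases before to 50 bases after the start of a gene, were found for 49 members and searched on both strands for the E-box CACGTG, the sequence that Myc and Max bind, which reads the same on both strands. No window was found for Npm1, Fbl, Rrp12, Bop1, Rrs1 and Gnl2, so these were not searched. The E-box was present in 11 of the 49 (22.4%), against 8.09% of 27025 genes. The Runx motif TGTGGT, chosen for search after the data had been seen, was present in 5 (10.2%), against 18.9% of genes. The genes compared include ones with no count in these cells. Neither share was matched for expression or for the base composition of promoters. The sites that lay before the start are shown in the direction of transcription, with the E-box in capitals and 30 bases on either side, fewer in Utp18, where the start follows. Rrn3 held 2 of them, at -215 and -48 from its start, at chr16:13780454-13780519 and chr16:13780621-13780686 on the plus strand. The others were at -121 in Imp4 (chr1:34439678-34439743, plus strand), at -114 in Nmd3 (chr3:69721911-69721976, plus), at -60 in Nop2 (chr6:125131793-125131858, plus) and at -20 in Utp18 (chr11:93885767-93885816, minus).
Rrn3, first site: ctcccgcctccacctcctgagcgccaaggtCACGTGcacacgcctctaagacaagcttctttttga
Rrn3, second site: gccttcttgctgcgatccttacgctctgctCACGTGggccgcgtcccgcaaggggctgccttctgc
Imp4: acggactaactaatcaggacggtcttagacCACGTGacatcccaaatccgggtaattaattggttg
Nmd3: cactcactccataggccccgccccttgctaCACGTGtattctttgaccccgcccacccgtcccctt
Nop2: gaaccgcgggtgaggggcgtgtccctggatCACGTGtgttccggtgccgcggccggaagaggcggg
Utp18: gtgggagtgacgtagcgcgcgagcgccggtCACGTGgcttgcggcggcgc
A match of 6 letters describes the sequence and is not a bound site, and binding was not measured in these cells. In Wdr43, Pno1, Ltv1, Pes1, Utp20 and Tsr1 the E-box lay after the start.

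To see how the genes varied with one another, every cell was thinned to 20000 counts, which left 42 cells of replicate 1 and 44 of replicate 2, and genes with a mean of at least 1 thinned count per cell in both libraries were kept. Of the members 36 reached this level, among 3305 genes, and the 19 below it, Polr1a, Polr1b and Polr1e among them, were not correlated. All correlations are descriptions over cells that share a library. The median Spearman rho over the 630 pairs of members was 0.157 in replicate 1 and 0.149 in replicate 2, against 0.0295 and 0.0103 over all pairs of genes. Pairs with a rho above 0 made up 85.1% and 84.1% of member pairs, against 57.2% and 52.5% of all pairs. A rho over 0.3 was found for 15.9% and 17.5% of member pairs, against 4.79% and 3.96% of all pairs. Single pairs were mostly weak, and 29 of 630 exceeded 0.3 in both libraries.

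By the lower of its values in the libraries, the closest pair was Npm1 with Ncl, at a rho of 0.619 in replicate 1 and 0.611 in replicate 2. In a single library other pairs lay higher, Npm1 with Dkc1 in replicate 1 (0.664) and Npm1 with Nhp2 in replicate 2 (0.632). Npm1 with Gnl3 had 0.565 and 0.504, and these were the only pairs over 0.5 in both libraries. By role, the scaffold proteins and chaperones had the highest median rho within their group, 0.437 and 0.367 over 10 pairs. Core proteins of the box C/D particle had 0.179 and 0.323 over 3 pairs, and those of the box H/ACA particle had 0.0465 and 0.178 over 6 pairs. Within that particle the values were uneven, from -0.00865 to 0.483 in replicate 1. The pair of Polr1c and Rrn3 had -0.0499 and -0.238. Factors of the small subunit had 0.111 in each library, factors of the large subunit had 0.0847 and 0.107, and pairs across roles had 0.169 and 0.157. Outside the scaffold group, membership of the same particle or subunit pathway was therefore not accompanied by a higher median rho in both libraries than that of pairs across roles, apart from the 3 box C/D pairs, whose medians were 0.179 and 0.323.

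**Figure D2:**
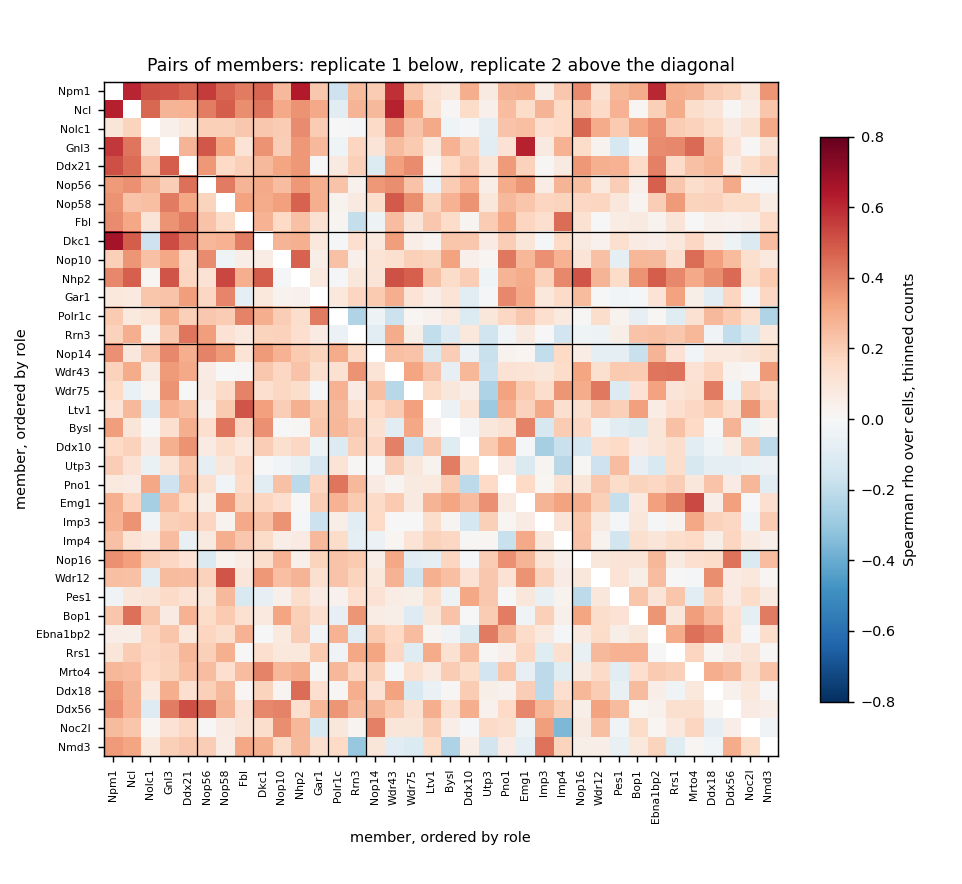
Spearman rho over cells for each pair of the 36 members that reached a mean of 1 thinned count, with replicate 1 below and replicate 2 above the diagonal and lines between roles (colour scale from -0.8 to 0.8). Many of the darkest cells of the map lie in the rows and columns of Npm1 and Ncl, whose own pair has 0.619 and 0.611, while Gnl3 with Emg1 is as dark in replicate 2 (0.615), and most other pairs are pale.

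Each member was also set against the sum of the remaining members. The median rho was 0.283 in replicate 1 and 0.342 in replicate 2, against 0.0677 and 0.0668 for the 3269 other genes. Npm1 followed the sum most closely, at 0.686 and 0.751, and Ncl had 0.658 and 0.609. Nhp2 had 0.446 and 0.640, Ddx21 had 0.557 and 0.474, and Fbl had 0.449 and 0.451. In both libraries 10 of the 36 members exceeded 0.3 (27.8%), against 3.49% of other genes, and these were led by the most abundant members, whose counts are the least sparse. Pes1, at -0.0687 and 0.210, and Polr1c, at 0.234 and -0.0247, did not follow the sum in both libraries.

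Among genes outside the list, the 10 with the highest rho to the summed members, ranked by the lower of the libraries, were Set, Adsl, Serbp1, Pa2g4, Dnajc2, Plcg2, D19Bwg1357e, Isyna1, Kit and Dok2. Set, a histone chaperone, had 0.663 and 0.636, and Kit, the receptor of the sort, had 0.572 and 0.493. Pa2g4, a nucleolar protein, was the only gene of the 10 on the list of 95 other biogenesis genes. At the other end, and singled out after the values were seen, Col4a1 (collagen of the basement membrane) had -0.668 and -0.659, Sparc had -0.513 and -0.665, Kdr (a VEGF receptor) had -0.485 and -0.588, and the nuclear RNA Malat1 had -0.573 and -0.544.

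**Figure D3:**
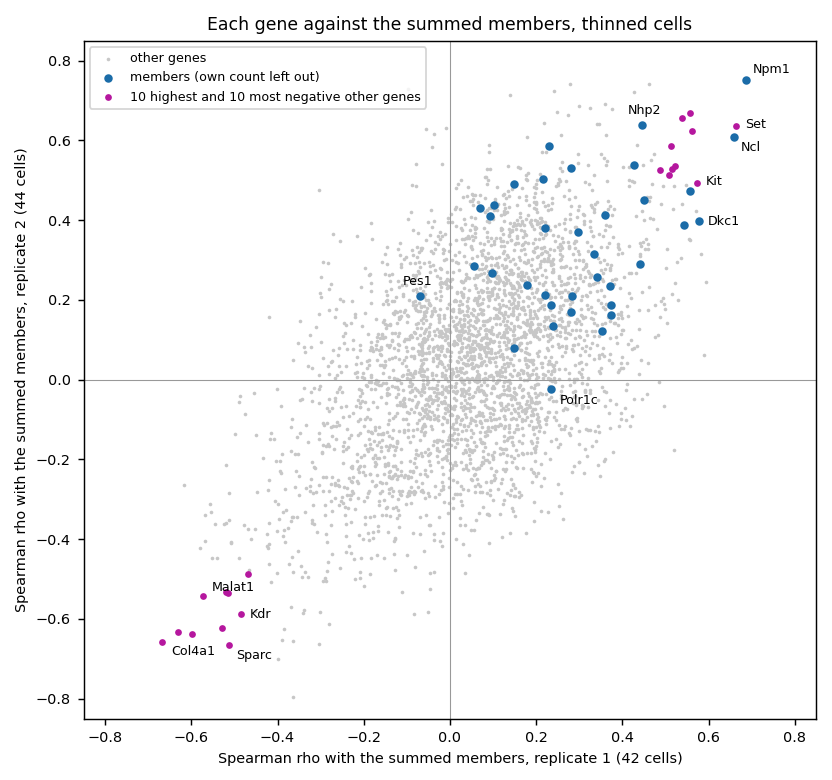
Spearman rho of each of 3305 genes with the summed members over thinned cells, replicate 1 (42 cells) on the horizontal and replicate 2 (44 cells) on the vertical axis, with members in blue, their own count left out of the sum, and the 10 highest and 10 most negative other genes in magenta. Npm1 and Ncl lie at the upper right beside Set, Col4a1 lies at the lower left, and 10 of 36 members exceed 0.3 on both axes.

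Summed lists showed where the members rose along with other programmes. With the list of 95 other biogenesis genes the summed members had a rho of 0.739 in replicate 1 and 0.785 in replicate 2, and with 85 ribosomal protein genes 0.383 and 0.615. With 15 endothelial genes they had -0.718 and -0.586, and with 8 hematopoietic genes 0.467 and 0.571. With the sparse counts of the erythroid markers they had 0.307 and 0.329. Cells richer in ribosome biogenesis transcripts were thus poorer in endothelial transcripts in both libraries. Thinned counts of 8 proliferation genes gave 0.124 and 0.395, and Mki67 alone gave 0.0874 and 0.264. Depth moved with the sum as well: the rho with a cell's total before thinning was 0.278 and 0.442, and its part in the other values was not tested.

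The hematopoietic transcription factor Runx1 was read at 300 CPM (replicate 1) and 136 CPM (replicate 2), and its rho with the summed members was 0.279 and 0.742. Myc had 86.1 and 53.6 CPM with a rho of 0.271 and 0.121, and Mycn had 112 and 70.4 CPM with a rho of 0.140 and 0.714. Mycl had no count in any of the 87 cells, which allows a share of cells with a count of up to 4.15% (upper bound of the exact 95% Clopper-Pearson interval, counting error only). Max, the partner of the Myc proteins, had 30.3 and 18 CPM. Runx1 and Mycn thus followed the members closely in replicate 2 and weakly in replicate 1. Thinned counts of Mycn were above 0 in only 16 of 42 and 14 of 44 cells, and those of Myc in 15 and 12. The values of Mycn and Myc are therefore coarse.

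For a comparison over libraries, the cells of each library were divided at the library's median CPM of Runx1, Myc, Mycn or Mki67. Counts were summed over the high and over the low cells of each library, and the 4 sums were fitted with edgeR's quasi-likelihood test with the library as a block and Benjamini-Hochberg adjustment over all genes tested. The fit has 1 residual degree of freedom per gene, and the spread is moderated across genes. By Runx1 and by Myc the moderation was almost complete, so a gene's own spread between the libraries had almost no weight. A small p-value thus need not mean that a gene differed alike in both libraries. The moderation was set anew in each division, so numbers of calls cannot be compared between divisions. All 55 members passed its filter on low counts in each division. The divisions overlap: of the Runx1-high cells, 14 of 21 in replicate 1 and 16 of 22 in replicate 2 were also Mycn-high, and 12 of 21 and 13 of 22 were also Myc-high. Whether the divisions differ from one another was not tested.

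In Runx1-high cells the 55 genes held 1.42% of counts in replicate 1 and 1.08% in replicate 2, against 1.01% and 0.524% in Runx1-low cells. With thinned cells the shares were 1.36% and 0.995% against 0.988% and 0.486%. Of the 55 members, 4 rose in Runx1-high cells at an adjusted p under 0.05 and 0 fell, whereas 0.376% of the 10629 genes tested were called higher and 1.19% lower. An unadjusted p under 0.05 was found for 19 of 55 members, against 8.66% of all genes tested, and 50 of 55 had a log2 difference above 0, against 52.7%. The median log2 difference was 0.95 over the members and 0.07 over all genes tested. The list of 95 other biogenesis genes had a median of 0.64, with 74 above 0, and 1 of them, Pa2g4, rose (log2 difference 1.31, adjusted p = 0.0102 by edgeR's quasi-likelihood test).

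The members that rose came from several steps of the pathway. Nhp2, of the box H/ACA particle, lay at 184 CPM in Runx1-low and 657 CPM in Runx1-high cells of replicate 1, and 209 and 644 CPM in replicate 2 (CPM scaled by TMM here and below). Its log2 difference was 1.73 ± 0.34 (n = 2 libraries, edgeR adjusted p = 0.000118), with 1.85 in replicate 1 alone and 1.62 in replicate 2 alone. Here and below, the value after ± is a standard error derived from edgeR's moderated test statistic. It does not measure how far the libraries differed. For Nhp2 the sums of high and of low cells were far apart in both libraries, and the low sums lay close together.

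Gnl3 rose from 139 to 340 CPM in replicate 1 and from 77.2 to 318 CPM in replicate 2, a log2 difference of 1.67 ± 0.41 (edgeR adjusted p = 0.0066). Wdr43 rose from 232 to 479 CPM and from 106 to 363 CPM, a log2 difference of 1.42 ± 0.37 (edgeR adjusted p = 0.0146). Ncl rose from 1633 to 2708 CPM and from 834 to 1701 CPM, a log2 difference of 0.88 ± 0.25 (edgeR adjusted p = 0.0314). For these 4 members each high sum lay above both low sums. Over single thinned cells the link was looser. The rho with Runx1 in replicate 1 and replicate 2 was 0.433 and 0.501 for Nhp2 and 0.218 and 0.463 for Gnl3. It was 0.122 and 0.576 for Wdr43, and 0.366 and 0.444 for Ncl. For Ncl the high sum of replicate 2 was only slightly above the low sum of replicate 1, so the libraries differed nearly as much as the cells within them.

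The next members did not pass. Dkc1 had 193 against 367 CPM and 75.1 against 214 CPM, a log2 difference of 1.22 ± 0.41 (edgeR adjusted p = 0.117). Npm1 had 2153 against 2699 CPM and 844 against 1738 CPM, a log2 difference of 0.68 ± 0.25 (edgeR adjusted p = 0.18).

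The size of the Runx1 difference depended on the library. The median over the members was 0.58 in replicate 1 alone and 1.02 in replicate 2 alone. The calls rested on pairing the sums within a library: with no block 0 of 55 members were called, 6 had an unadjusted p under 0.05 and the median was 0.80, where 0% of genes were called higher and 0.00941% lower. With sums of thinned cells 0 of the 52 members tested were called (0% of genes higher and 0.0582% lower). With DESeq2 5 were (0.79% of genes higher), Utp15 in addition to the same 4.

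Other features moved with this division. Cells low in Runx1 held all 3 of the cells with high mesenchymal markers, and without these cells Nhp2, Gnl3 and Wdr43 were called (0.295% of genes higher) and Ncl was not. Endothelial markers had 2681 CPM in Runx1-low and 1175 CPM in Runx1-high cells of replicate 1, and 3572 and 2058 CPM in replicate 2. The 8 hematopoietic genes had 652 and 1720 CPM, and 115 and 1030 CPM. Their list includes Runx1 itself, so part of this rise was fixed by the division. Runx1 alone had 15.8 and 457 CPM in replicate 1, and 2.94 and 226 CPM in replicate 2. Erythroid markers were low throughout, with 0.315 and 15.6 CPM in replicate 1 and 6.47 and 27.0 CPM in replicate 2. Macrophage markers moved in opposite directions, with 393 and 188 CPM in replicate 1 and 234 and 373 CPM in replicate 2. Median depth was 95376 counts per Runx1-low and 260240 per Runx1-high cell in replicate 1, and 213444 and 271734 in replicate 2. Their part in the differences of the members was not tested, and a change in transcripts per cell cannot be told apart here from a change in the other transcripts that make up the total.

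**Figure D4:**
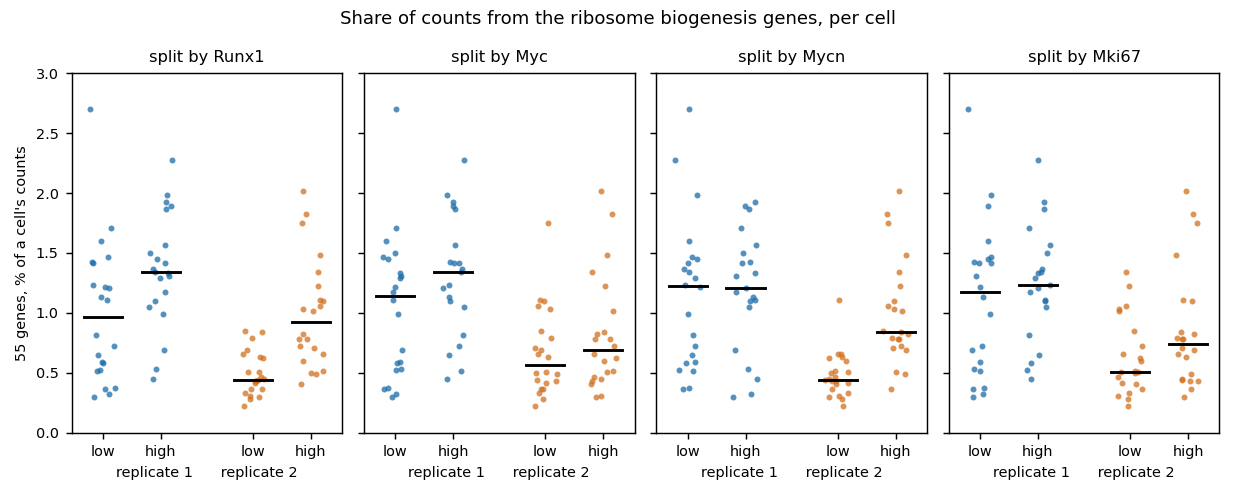
Share of each cell's counts from the 55 genes (%), for cells low or high in Runx1, Myc, Mycn or Mki67 within replicate 1 (blue) and replicate 2 (orange), with 1 point per cell and a bar at the median. Medians of Runx1-high cells are 1.34% and 0.919%, against 0.961% and 0.443% in Runx1-low cells, and in the Mki67 panel the medians of replicate 1 lie close together.

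In Mycn-high cells the 55 genes held 1.41% of counts in replicate 1 and 1.06% in replicate 2, against 1.12% and 0.461% in Mycn-low cells. The median cell of replicate 1 did not follow the sum, with 1.22% in Mycn-low and 1.21% in Mycn-high cells, whereas that of replicate 2 had 0.443% and 0.842%. Of the 55 members 0 were called in either direction by edgeR with the block, where 0% of 10537 genes were called higher and 0.00949% lower. This count cannot be set against the calls by Runx1, because the moderation differed between the fits. By Mycn, Ddx18 (1.44 ± 0.34) had an unadjusted edgeR p of 0.00151, and by Runx1, Gnl3 (1.67 ± 0.41) had 4.78e-05. An unadjusted p under 0.05 was found for 17 of 55 members, against 6.45% of all genes tested, and 50 had a log2 difference above 0, against 53.0%. The median log2 difference was 0.83 against 0.07 over all genes tested. DESeq2 called 1 member higher, Ddx18, where 0.516% of genes were called higher.

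Ddx18 had the smallest p in this division, with 153 and 424 CPM in Mycn-low and Mycn-high cells of replicate 1 and 124 and 328 CPM in replicate 2, a log2 difference of 1.44 ± 0.34 (edgeR adjusted p = 0.338). Wdr43 had a log2 difference of 1.15 ± 0.32, Nop56 of 1.26 ± 0.36, Emg1 (a methyltransferase of ribosomal RNA) of 1.90 ± 0.60 and Rrp9 of 2.80 ± 0.90, with edgeR adjusted p-values from 0.449 to 0.552. Npm1 lay at 2336 and 2664 CPM in replicate 1 and at 699 and 1742 CPM in replicate 2, and Ncl had 2200 and 2457 CPM and 657 and 1724 CPM. Both were higher in Mycn-high cells of each library, mostly so in replicate 2, and neither passed (edgeR adjusted p = 0.651 and 0.66).

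Markers of cell state moved with Mycn too. Endothelial markers had 2356 CPM in Mycn-low and 1179 CPM in Mycn-high cells of replicate 1, and 3822 and 2058 CPM in replicate 2. The 8 hematopoietic genes had 991 and 1628 CPM, and 156 and 928 CPM. Median depth was 140016 counts per Mycn-low and 161402 per Mycn-high cell in replicate 1, and 202556 and 291242 in replicate 2. The part of these in the Mycn differences was not tested.

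In Myc-high cells the shares were 1.41% and 0.901%, against 1.11% and 0.798% in Myc-low cells. With thinned cells they were 1.30% and 0.8175% against 1.04% and 0.663%. Median depth was 127682 counts per Myc-low and 260240 per Myc-high cell in replicate 1, and 213444 and 278987 in replicate 2. The part of depth in the Myc differences was not tested. Of the 55 members 1 rose and 0 fell, where 0.047% of 10643 genes were called higher and 0.122% lower. This was Nop14, a factor of the small subunit processome, with 7.83 and 211 CPM in Myc-low and Myc-high cells of replicate 1 and 68.6 and 96.4 CPM in replicate 2 (log2 difference 2.53 ± 0.64, edgeR adjusted p = 0.0468). The rise was thus large in replicate 1, where 3 cells held 77.7% of the counts of Nop14, and small in replicate 2, and the call was lost with no block and under 5 other settings. Among the latter is leaving out the 3 cells with high mesenchymal markers, all of which were Myc-high. Mesenchymal markers had 67.2 CPM in Myc-low and 1425 CPM in Myc-high cells of replicate 1, and 26.1 and 574 CPM in replicate 2, and their part in the Myc differences beyond that call was not tested.

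Over the members the median log2 difference by Myc was 0.39, with 43 of 55 above 0, against 0.01 and 50.5% above 0 over all genes tested. Rrp1b, a nucleolar protein of large subunit assembly, had a log2 difference of 2.02 ± 0.56 (edgeR adjusted p = 0.0942). Ebna1bp2 (1.10 ± 0.45), Nip7 (1.36 ± 0.61) and Ddx21 (0.73 ± 0.36) followed, with edgeR adjusted p-values of 0.856 and above. The most abundant members lay near 0, with log2 differences of 0.04 ± 0.16 for Npm1 and 0.08 ± 0.16 for Ncl, and both were lower in the Myc-high cells of replicate 2.

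The 11 members with the E-box in the promoter window shown above had a median log2 difference of 0.55 by Myc, against 0.37 for the 38 without it, and of 0.86 against 0.84 by Mycn. By Runx1 the medians were 1.30 and 0.85, and by Mki67 -0.16 and 0.34. These medians are given as a description without a test.

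In Mki67-high cells, where Mki67 marks cycling cells, the shares of the 55 genes were 1.28% in replicate 1 and 0.946% in replicate 2, against 1.28% and 0.714% in Mki67-low cells. With thinned cells the shares were 1.25% and 0.856% against 1.10% and 0.624%. Median depth was 90600 counts per Mki67-low and 245523 per Mki67-high cell in replicate 1, and 207920 and 264754 in replicate 2. The part of depth in the Mki67 differences was not tested. Of the 55 members 0 were called by edgeR, where 0.0376% of 10650 genes were called higher and 0.00939% lower, an unadjusted p under 0.05 was found for 4 (4.35% of all genes tested), and DESeq2 called 0 (0.132% of genes higher and 0.0988% lower). The median log2 difference was 0.23, with 35 of 55 above 0, against 0.03 and 51.7% above 0 over all genes tested. It was -0.03 in replicate 1 alone and 0.25 in replicate 2 alone.

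Nop58 had the smallest p by Mki67, with 458 and 705 CPM in Mki67-low and Mki67-high cells of replicate 1 and 272 and 464 CPM in replicate 2 (log2 difference 0.70 ± 0.24, edgeR adjusted p = 0.736). Gnl3 (0.87 ± 0.32), Ncl (0.34 ± 0.14), Dkc1 (0.73 ± 0.33) and Polr1a (1.45 ± 0.71) had edgeR adjusted p-values of 0.879 and above. Npm1 had 2551 and 2499 CPM in replicate 1 and 1319 and 1415 CPM in replicate 2, a log2 difference of 0.04 ± 0.13.

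**Figure D5:**
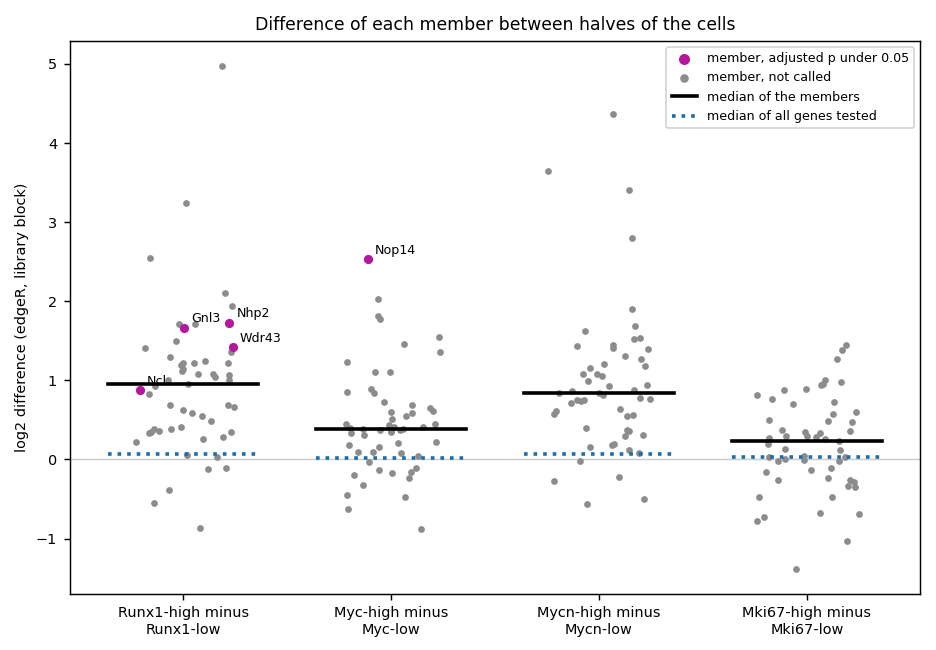
Log2 difference of each of the 55 members between cells high and low in Runx1, Myc, Mycn and Mki67, from edgeR with the library as a block, with called members in magenta, the members' median as a black line and the median of all genes tested as a dotted line. The members' medians are 0.95, 0.39, 0.83 and 0.23, and the called members are Nhp2, Gnl3, Wdr43 and Ncl by Runx1 and Nop14 by Myc.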

How the data were processed

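The deposited values were counts per gene and cell, without normalization. The authors split reads by cell barcode, aligned them to mm10 with HISAT2 2.1.0, counted them with HTSeq and collapsed molecular identifiers. Whether all duplicates were removed is not shown by the counts. All 87 cells were kept, 1 of them with fewer than 2000 genes, and doublets were not searched for. Cells were picked by pipette per the labels, and the authors had removed those with very many reads or genes as possible multiplets. Depth per library is given in the report. Members, gene lists and tests were chosen with earlier results of these data known.

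Levels are CPM of a library's summed counts. Cells were thinned without replacement to 20000 counts for correlations, which left out 1 shallower cell of replicate 1. Cells divided at a library's median CPM of a gene were summed. The sums were fitted by edgeR 4.0.16 under R 4.3.3 (TMM scaling, filterByExpr, glmQLFTest, threshold 0.05). The fit was also run on counts simulated from its own dispersion, which cannot show whether its assumptions hold in these data. The library is the block because both sums of a library come from the same library. Alternatives were no block, DESeq2 1.42.0, RLE factors, no filter, thinned sums, thinned divisions, without mesenchymal-marked cells (at least 100 counts of each of Col1a1, Col1a2, Col3a1 and Lum) and each library left out. Other steps ran in scipy 1.17.1, numpy 2.4.6, pandas 2.3.3 and matplotlib 3.10.9 under Python 3.11.15.

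Named genes were the 10 highest members, all snoRNP and RNA polymerase I members, Pes1, Bop1, Wdr12, the 3 lowest members, the 5 members of smallest p in each division with Npm1 and Ncl, and the 10 other genes closest to the summed members. Others named were chosen after their values were seen.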

Additional observations from a re-analysis of the deposited data

How the results depend on the processing

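Calls of single members were few and depended on the fit, whereas the sign of the members' median did so only by Mki67. By Runx1 the 4 calls became 0 with no replicate block and 0 with sums of thinned cells. By Myc the 1 call became 0 with no replicate block, and 0 with DESeq2, RLE factors, sums of thinned cells, divisions on thinned counts or without mesenchymal-marked cells. Under these settings from 0% (no block) to 0.0985% (DESeq2) of genes were called higher. By Mycn the 0 calls became 1 with DESeq2 (0.516% of genes higher), 4 with divisions on thinned counts (0.301%) and 3 without mesenchymal-marked cells (0.249%). In these sums the library number marks a shared library, so the block is a pairing. With 1 library left out, which gives a value with no test, the median log2 difference ranged from 0.58 to 1.02 by Runx1, 0.16 to 0.46 by Myc, 0.67 to 1.13 by Mycn and -0.032 to 0.25 by Mki67. Divisions on thinned counts moved the Mki67 median to -0.024 and reversed Npm1 by Mki67 to -0.10. The mean of the libraries' median pair rho, 0.153, was 0.229 at 10000 counts, 0.166 at 50000 counts, 0.173 with another random draw and 0.133 as a Pearson correlation. Correlations with the summed members moved to 0.290 (Myc, replicate 2) and 0.783 (other biogenesis genes, replicate 1) without thinning. At 50000 counts they moved to -0.0763 (Mki67, replicate 1), 0.841 (other biogenesis genes, replicate 2) and 0.377 (hematopoietic genes, replicate 1), with Mycn at 0.0303 and proliferation genes at -0.0687 in replicate 1, and without Npm1 and Ncl to 0.619 (other biogenesis genes) and -0.603 (endothelial genes), both in replicate 1. With the sparse erythroid markers the value moved to 0.329 in replicate 1 and 0.141 in replicate 2 without thinning, 0.227 in replicate 2 at 50000 counts, 0.372 in replicate 1 without Npm1 and Ncl, and 0.310 in replicate 2 without mesenchymal-marked cells. Of the log2 differences of named members, 211 were counted as unchanged across these settings, 16 lost and 6 gained a call. With 1 library left out, unchanged meant only within the spread of the single-library values, whatever the sign. Npm1 by Myc was counted so at -0.15 in replicate 2 alone, against 0.04 in the main fit. The cause of these shifts was not tested. Few cells and 2 libraries limit the precision.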

Other observations

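Ribosomal protein genes followed the summed members less evenly than other biogenesis genes did. The median rho of single genes was 0.147 in replicate 1 and 0.377 in replicate 2 over 80 ribosomal protein genes, and 0.201 and 0.301 over 43 other biogenesis genes, against 0.283 and 0.342 over the 36 members. The difference between these lists was not tested.

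The ratio of variance to mean of the members differed more between libraries than from other genes. The median of this ratio over thinned cells was 9.95 for members and 7.90 for other genes in replicate 1, and 4.37 and 4.17 in replicate 2. It includes counting noise and was not matched for level, which was higher in replicate 1 for most members.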
